A study of Mus musculus with 15 samples.

Results

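The genes described here are 50 genes of the unfolded protein response and of the machinery that folds and exports secreted proteins, measured in the mouse submandibular gland. They were chosen by symbol for their known roles, at a time when earlier results of these data were known. They are 50 of the 21013 gene symbols in the deposited count table. By role they comprise 11 chaperones of the endoplasmic reticulum (ER), 4 disulfide isomerases, 8 genes of ER-associated degradation, 7 stress sensors and transcription factors, 11 genes of the translocon and signal peptidase, and 9 genes of vesicle coats and cargo receptors. All 50 passed the filter on low counts, which left 16042 genes for testing. The data are RNA-seq counts from 15 gland libraries of wildtype male C57BL/6 mice aged 8 to 10 weeks, in 5 groups of 3. Untreated glands are called NT. Glands that received 15 Gy of radiation and were collected on day 4 or day 30 are IR_4d and IR_30d. Irradiated glands that were also injected weekly with iEVs from day 1 are IR_iEV_4d and IR_iEV_30d. What the letters iEV stand for is not written out in the labels; the title of the series speaks of extracellular vesicles from mesenchymal stem cells. The labels name no group with an injection that lacks iEVs and none with iEVs but no radiation, and they do not say whether the other irradiated glands were injected. An effect of the injection and one of the iEVs therefore cannot be told apart here. The day on which the NT glands were collected is not stated. The labels do not say that each library came from a separate mouse, so p-values measure the spread between these libraries, which may be technical.

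Secreted proteins enter the ER through the Sec61 translocon, lose their signal peptide, and fold with the help of chaperones such as Hspa5 (BiP) and of disulfide isomerases. Proteins that fail to fold are recognised by Edem lectins and returned to the cytosol through the Sel1l-Syvn1 complex for degradation, while folded cargo leaves in COPII-coated vesicles. A shortfall in folding capacity is sensed by Ern1 (IRE1), Atf6 and Eif2ak3 (PERK), whose targets include most of these chaperones. Submandibular acinar cells and granular convoluted tubules, the duct segments that secrete kallikreins and other proteins in male mice, export large amounts of protein and carry an extensive ER.

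Some of the promoters hold letters of the elements through which the sensors act, and the sites below are shown because the changes of the genes that hold ERSE forms shared a sign in 3 of the comparisons described later. RefSeq windows on GRCm38.p6, from 250 bases before to 50 bases after an annotated start, were present for 39 of the 50 genes. They were searched on both strands for the ER stress response element (ERSE; CCAAT and CCACG separated by 9 bases of any kind), for ERSE-II (ATTGG and CCACG separated by 1 base of any kind) and for TGACGTGG (UPRE), counting exact matches only. Both ERSE forms contain the letters CCACG, which the reverse complement of UPRE also contains. ERSE was found in 9 of the 39 genes (23.1%), which had 42 windows, and in 0.119% of all 32851 windows. Here and below the first share counts genes and the second counts windows. The genes were chosen for known roles in this response, so a higher share among them is not a test. ERSE-II was found in Dnajb11 and Herpud1 (5.13%, against 0.0365% of all windows). In capitals are the matched letters, with 6 bases on each side, written 5′ to 3′ on the strand of the gene, so that a match to the other strand reads CGTGG first. The windows of the genes shown are chr2:34771840-34772139 (plus strand) for Hspa5, chr10:86705395-86705694 (minus) for Hsp90b1, chr15:88819396-88819695 (plus) for Creld2, chr10:75893148-75893447 (plus) for Derl3, chr8:94386179-94386478 (plus) for Herpud1 and chr16:22857595-22857894 (plus) for Dnajb11. The ERSE of Hspa5 begins 65 bases before the start, and the sites of Hsp90b1 begin 212 and 107 bases before it. The ERSE of Creld2 begins 126 bases before the start and that of Derl3 156 bases before it. The ERSE-II of Herpud1 begins 52 bases before the start and that of Dnajb11 at base 8 of the transcript.
Hspa5 ERSE: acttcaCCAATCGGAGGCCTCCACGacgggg
Hsp90b1 ERSE, distal: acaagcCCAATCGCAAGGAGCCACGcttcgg
Hsp90b1 ERSE, proximal: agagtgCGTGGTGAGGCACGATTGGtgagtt
Creld2 ERSE: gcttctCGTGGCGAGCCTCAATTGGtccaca
Derl3 ERSE: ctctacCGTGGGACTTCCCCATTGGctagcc
Herpud1 ERSE-II: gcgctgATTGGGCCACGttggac
Dnajb11 ERSE-II: gcggcgATTGGCCCACGcctggc

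ERSE was distributed by role. It was present in 6 of the 9 chaperone genes with a window (Calr, Canx, Creld2, Dnajc3, Hsp90b1 and Hspa5), in 1 of 4 disulfide isomerases (Pdia6) and in 2 of 7 genes of ER-associated degradation (Derl3 and Syvn1). None of the 5 sensors, 7 translocon genes or 7 coat and receptor genes with a window held an ERSE or ERSE-II. The UPRE was found in 5 genes, Copb1, Copb2, Kdelr3, Sec23a and Sec24d, which are 12.8% of the 39 genes against 0.676% of all windows. All 5 belonged to the 7 coat and receptor genes with a window, a feature singled out after it was seen. The sites of Sec24d (window chr3:123267246-123267545, plus strand) and Kdelr3 (chr15:79516158-79516457, plus strand) begin 26 and 30 bases before the start.
Sec24d UPRE: ggcgccTGACGTGGcactag
Kdelr3 UPRE: gccccgCCACGTCAccgcgc

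The 250 bases before the start of Hspa5 (chr2:34771840-34772089, plus strand) and of Sel1l (chr12:91849158-91849407, minus strand) are shown because these 2 genes had the largest rises in IR_30d against NT. Capitals mark the ERSE in Hspa5. The Sel1l stretch holds no ERSE, ERSE-II or UPRE by these letters, and capitals mark its only CCACG, on the other strand. A CCACG on either strand was present in 79.5% of the genes with a window and in 32.8% of all windows.
Hspa5 upstream: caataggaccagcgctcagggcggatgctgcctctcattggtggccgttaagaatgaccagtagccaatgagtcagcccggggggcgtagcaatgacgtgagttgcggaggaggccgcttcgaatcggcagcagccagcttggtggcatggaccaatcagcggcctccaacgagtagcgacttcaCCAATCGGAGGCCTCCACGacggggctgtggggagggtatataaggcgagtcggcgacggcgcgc
Sel1l upstream: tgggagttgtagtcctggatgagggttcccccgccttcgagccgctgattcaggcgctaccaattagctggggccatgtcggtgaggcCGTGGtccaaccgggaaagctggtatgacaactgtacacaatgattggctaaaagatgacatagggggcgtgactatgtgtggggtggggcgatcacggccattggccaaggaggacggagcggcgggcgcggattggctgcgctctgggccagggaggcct

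Library totals ranged from 29082798 to 52201098 counts. Acinar identity markers (Aqp5, Bhlha15 and 6 others) were present in every library, at a summed 2151 to 3041 CPM (counts scaled by effective library size). Sublingual markers, from a gland that lies against the submandibular gland, were high in 6 libraries: NT replicate 1, IR_4d replicates 1 and 2, IR_iEV_4d replicates 2 and 3, and IR_iEV_30d replicate 2. Counts in IR_iEV_4d replicate 2 and IR_iEV_30d replicate 3 followed the GC content of transcripts, with Spearman coefficients of 0.422 and 0.487 across 13669 genes, against -0.217 to -0.0258 in the other 13 libraries. The 50 genes followed it too. In IR_iEV_30d replicate 3 the 25 genes of lower GC content had a median log2 CPM 0.24 below the other 2 libraries of the group (a difference of -0.24), with 22 of 25 below them, and the 25 of higher GC content had a median difference of 0.08. In IR_iEV_4d replicate 2 the medians were -0.13 and 0.10. The gene that departed most was Hsp90b1, at 241 CPM in IR_iEV_30d replicate 3 against 399 and 498 CPM in the other 2. The count of calls and the median over the 50 genes are given with and without these libraries for each comparison of glands given iEVs. IR_iEV_4d replicate 2 also held skeletal muscle markers at a summed 108 CPM, against at most 4.94 CPM in any other library. Its adipocyte markers, at a summed 219 CPM, were the highest of the 15 libraries. Leaving it out removes these features together with the GC trend.

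**Figure D1:**
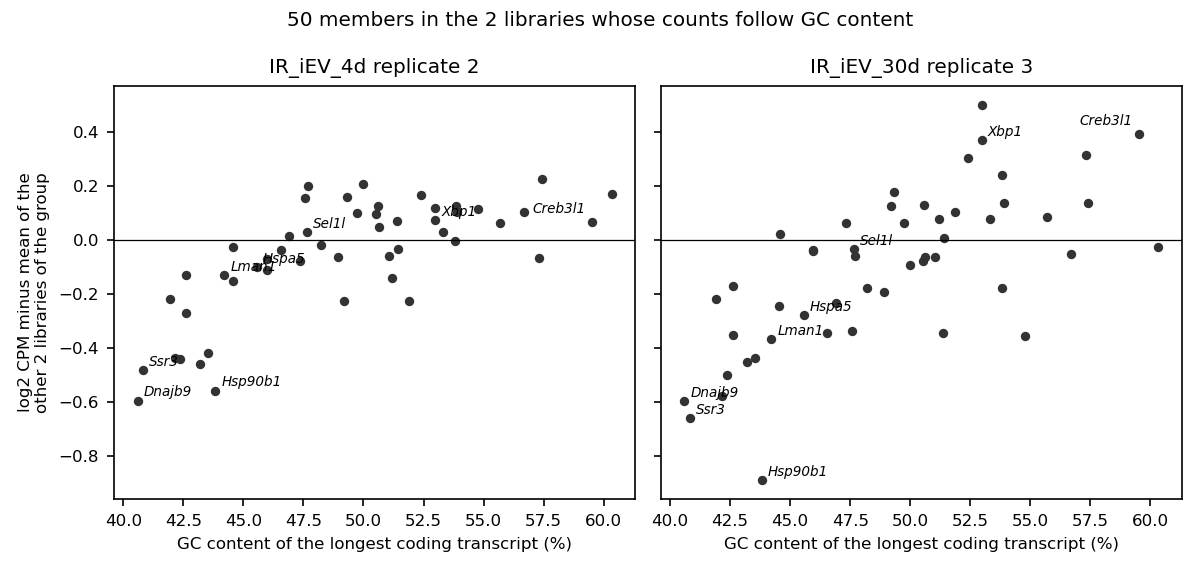
The log2 CPM of each of the 50 genes in IR_iEV_4d replicate 2 and IR_iEV_30d replicate 3, minus the mean of the other 2 libraries of its group (vertical axis), against the GC content in percent of its longest coding transcript (horizontal axis). Points on the left, such as Dnajb9, Ssr3 and Hsp90b1, lie below 0 in both libraries, and most points on the right lie at or above 0.

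In NT glands the level of the 50 genes, per kilobase of exon, spanned from 444 CPM per kb for P4hb, the disulfide isomerase PDI, to 3.39 CPM per kb for Derl2, a channel component of ER-associated degradation. P4hb was followed by the lectin chaperone Calr (212 CPM per kb), Hspa5 (140), the ER Hsp90 paralogue Hsp90b1 (135) and the glycoprotein isomerase Pdia3 (115). The NT libraries of Hspa5 (519 to 646 CPM over 4229 bases of exon) and Hsp90b1 (522 to 579 CPM over 4032 bases) overlapped after division by length, so the order of these neighbours is not resolved. Among the transcription factors Creb3l1 (87.3 CPM per kb) and Xbp1 (83.4) were far above the sensors Eif2ak3 (17.8), Atf6 (14.6) and Ern1 (12.7). The COPII paralogues differed, with Sec23b at 16.7 and Sec23a at 3.49 CPM per kb.

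**Figure D2:**
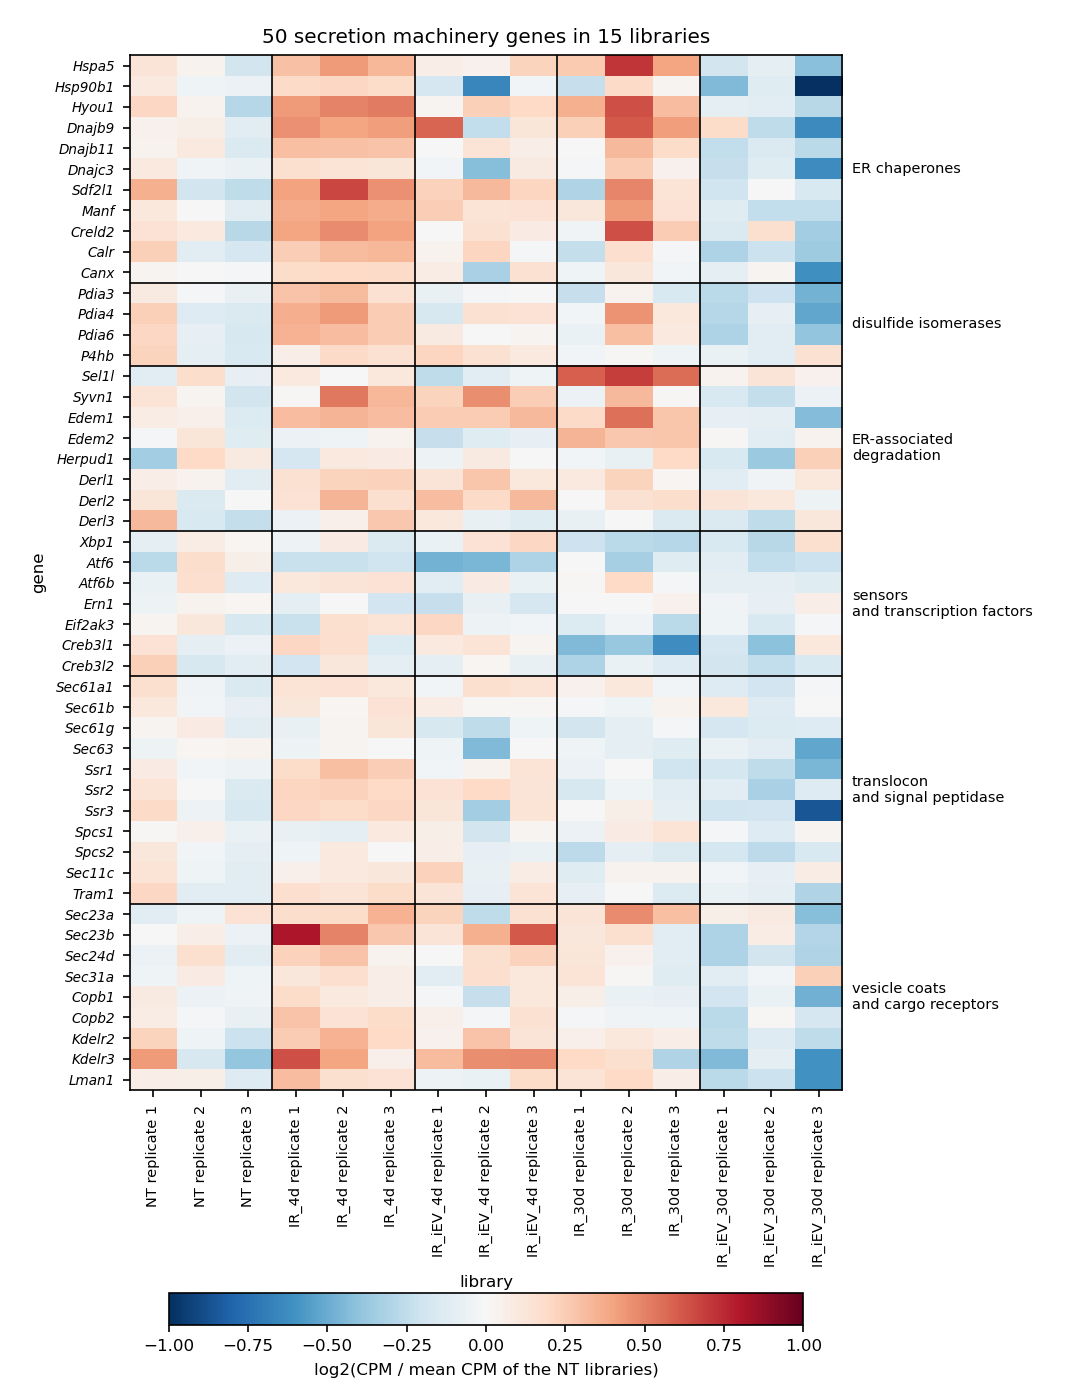
Each row is a gene and each column a library; colour gives log2 of the library's CPM over the mean CPM of the NT libraries, on a scale from -1 to 1. Chaperone rows are red across all 3 IR_4d libraries and in IR_30d replicate 2, and in IR_iEV_30d 10, 9 and 11 of the 11 chaperones lie below the NT mean in replicates 1, 2 and 3. Among the NT libraries themselves 0, 5 and 11 of the 11 lie below it in replicates 1, 2 and 3.

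At day 4 after irradiation most of the 50 genes, and all 11 ER chaperones, had positive changes from NT, and 1 passed the test. The log2 change from NT to IR_4d was positive in 43 of 50 genes, with a median of 0.19, against a median of 0.00 and 49.4% positive over all genes tested. In 23 of the 50 genes every IR_4d library lay above every NT library, an arrangement that 9.06% of all genes showed. This included all 11 chaperones. The 1 gene that passed (edgeR quasi-likelihood test, Benjamini-Hochberg adjusted p below 0.05 over all genes) is set against a background in which 0.835% of all genes were called higher and 0.561% lower. An unadjusted p below 0.05 was reached by 19 of the 50 and by 11.6% of all genes.

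That gene was Manf, an ER-resident factor that binds Hspa5 and is secreted under stress. Its level was 105, 98.1 and 90.8 CPM in NT replicates 1 to 3 and 127, 129 and 127 CPM in those of IR_4d. The 3 IR_4d values lay close together and above all NT values, a log2 rise of 0.38 ± 0.09 (SE, adjusted p = 0.0349). Leaving out any of the 6 libraries other than NT replicate 1 ended the call, with adjusted p from 0.107 to 0.182. Hyou1, a nucleotide exchange factor of Hspa5, had 310, 275 and 221 CPM in NT and 360, 378 and 386 CPM in IR_4d. Its groups did not overlap, and its log2 change of 0.48 ± 0.12 did not pass (adjusted p = 0.0528, edgeR). It passed with DESeq2 (adjusted p = 0.00493) and without NT replicate 1 (adjusted p = 0.0116).

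Hspa5 itself had 646, 606 and 519 CPM in NT and 722, 792 and 744 CPM in IR_4d. All 3 IR_4d values exceeded the highest NT value, and the log2 change was 0.35 ± 0.12 (adjusted p = 0.212, edgeR). Sdf2l1, which works with the ER co-chaperone Dnajb11, had 54.8, 37.8 and 36.0 CPM in NT and 56.7, 67.9 and 59.0 CPM in IR_4d. The lowest IR_4d value lay just above NT replicate 1, and the change was 0.51 ± 0.18 (adjusted p = 0.229, edgeR). Creld2, an ER stress-induced isomerase-like protein, had 49.5, 47.8 and 36.9 CPM in NT and 58.8, 62.0 and 59.1 CPM in IR_4d, without overlap (0.42 ± 0.16, adjusted p = 0.273, edgeR). Dnajb9, an Hspa5 co-chaperone that restrains Ern1, rested at 51.7, 52.1 and 46.5 CPM in NT against 68.7, 65.9 and 66.9 CPM in IR_4d, again without overlap (0.42 ± 0.20, adjusted p = 0.444, edgeR). In Dnajb11 the values were 78.7, 82.5 and 69.7 CPM in NT and 94.8, 94.3 and 93.8 CPM in IR_4d, also apart (0.29 ± 0.09, adjusted p = 0.122, edgeR). Low values of these genes in NT came from the same library: NT replicate 3 was the lowest of its group for all 11 chaperones.

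Of the 4 disulfide isomerases 3 lay above NT in every IR_4d library, the exception being P4hb, and none passed. Pdia3 had 383, 356 and 343 CPM in NT and 439, 448 and 400 CPM in IR_4d (0.25 ± 0.09, adjusted p = 0.262, edgeR). Among the genes of ER-associated degradation Edem1 had the lowest p, at 163, 160 and 141 CPM in NT and 191, 196 and 191 CPM in IR_4d (0.32 ± 0.11, adjusted p = 0.19, edgeR). Sel1l (log2 change 0.07), Edem2 (-0.02) and Herpud1 (0.01) were near 0. The 7 sensors and transcription factors had a median of -0.04, and in none did the groups separate. Xbp1, whose activity depends on splicing of its RNA that gene counts do not show, had 254, 285 and 274 CPM in NT and 261, 287 and 245 CPM in IR_4d, with full overlap. The 9 coat and receptor genes were all positive (median 0.21). Sec23b, the COPII inner coat subunit, had 104, 110 and 101 CPM in NT and 184, 148 and 127 CPM in IR_4d. Its IR_4d libraries spread widely, and the change of 0.54 ± 0.14 did not pass (adjusted p = 0.0869, edgeR).

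Sublingual markers moved with part of this comparison. Their mean log2 CPM was 9.68, 8.22 and 1.06 in IR_4d replicates 1 to 3, the same order as Sec23b, and 6.53, -1.65 and -2.26 in NT. The order differed in NT, with Sec23b highest in replicate 2 and the markers highest in replicate 1. In IR_iEV_4d the markers were at 1.86, 8.13 and 8.84 while Sec23b was at 115, 134 and 161 CPM. Without the libraries high in these markers the change of Sec23b was 0.25 (adjusted p = 0.593), that of Hyou1 was 0.62 (adjusted p = 0.125) and that of Manf 0.41 (adjusted p = 0.313) in edgeR. This leaves IR_4d with replicate 3 alone, which is assumed to vary like the other groups. The median over the 50 genes was then 0.21. Adipocyte markers summed to 0.723 to 11.8 CPM in NT, 2.36 to 86.5 CPM in IR_4d and 30.8 to 219 CPM in IR_iEV_4d. With the sublingual and adipocyte levels as covariates the median was 0.15 and 0 of the 50 passed (edgeR), with 6 at an unadjusted p below 0.05. Markers of the parotid gland also separated IR_4d from NT. Their mean log2 CPM was 8.499, 3.361 and 5.988 in IR_4d replicates 1 to 3 and 2.937, 1.76 and 1.973 in NT. Their summed level overlapped (21500 to 26470 CPM against 24100 to 33220 CPM), and none of the 6 passed (edgeR). Parotid levels were not a covariate, and IR_4d replicate 3, kept above, lay over NT in them. Their part in the changes was not tested.

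At day 30 after irradiation a few folding and degradation genes were higher than in NT, and 1 transcription factor was lower. Of the 50 genes 4 were called higher and 1 lower, where 3.19% of all genes were called higher and 1.29% lower. The 1 lower call is near the share over all genes. Unadjusted p lay below 0.05 in 8 of the 50 and in 16.3% of all genes (edgeR). The median log2 change was 0.03, with 30 genes positive. In 8 genes every IR_30d library lay above every NT library and in 2 below, which 12.6% and 10.7% of all genes showed. By role the median was 0.18 for the chaperones (10 of 11 positive), 0.12 for ER-associated degradation (7 of 8 positive), -0.07 for the translocon and signal peptidase (9 of 11 negative) and -0.15 for the sensors (5 of 7 negative). The difference between the IR changes of the 2 days was not tested.

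Sel1l, the adaptor of the ubiquitin ligase Syvn1 in the ER membrane, changed most clearly. Its level was 520, 632 and 531 CPM in NT and 850, 908 and 827 CPM in IR_30d. The IR_30d libraries were close to one another and far above both NT and the IR_4d libraries (562 to 604 CPM). The log2 rise was 0.62 ± 0.09, a 1.54-fold change (adjusted p = 0.000744, edgeR). It passed in each of the 17 alternative settings, with adjusted p of at most 0.00665. Syvn1 itself, the partner of Sel1l, had 93.0, 86.6 and 74.8 CPM in NT and 81.6, 106 and 85.5 CPM in IR_30d, with overlap (0.10 ± 0.13). Edem2, a mannosidase-like factor that marks misfolded glycoproteins, rose from 88.1, 96.4 and 81.6 CPM to 112, 107 and 107 CPM (0.30 ± 0.08, adjusted p = 0.0341, edgeR). Its paralogue Edem1 had 177, 226 and 187 CPM in IR_30d, above all NT libraries, and did not pass (0.35 ± 0.11, adjusted p = 0.0738, edgeR).

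Hspa5 rose to 707, 967 and 777 CPM in IR_30d (0.47 ± 0.12, adjusted p = 0.0318, edgeR). Every IR_30d library exceeded every NT library, and replicate 2 stood apart from the other 2. Hyou1 rose in the same manner, to 344, 420 and 333 CPM (0.45 ± 0.12, adjusted p = 0.0376, edgeR). Replicate 2 was the highest IR_30d library for all 11 chaperones and for 34 of the 50 genes. Without it the change of Hspa5 was 0.33 (adjusted p = 0.207) and that of Hyou1 0.33 (adjusted p = 0.216), and Sel1l was the only one of the 50 that passed. Leaving out NT replicate 3 or IR_30d replicate 3 also left Sel1l alone. The remaining chaperones did not pass in IR_30d. Creld2 had 43.7, 70.0 and 53.2 CPM, Sdf2l1 had 34.8, 60.1 and 47.1 CPM and Dnajb9 had 59.2, 76.5 and 66.8 CPM, each highest in replicate 2. Of these only Dnajb9 lay above NT in all libraries.

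The gene that fell was Creb3l1, an ER-anchored transcription factor of the Atf6 type that is linked to secretory cargo transport. It had 251, 212 and 219 CPM in NT and 167, 175 and 148 CPM in IR_30d, without overlap (-0.48 ± 0.12, adjusted p = 0.0316, edgeR). Leaving out NT replicate 2 kept this call, and leaving out any other of the 6 libraries ended it (adjusted p from 0.0617 to 0.161). Xbp1 also lay below NT in every library, at 235, 224 and 222 CPM, and did not pass (-0.25 ± 0.11, adjusted p = 0.242, edgeR). Derl3 and Herpud1, components of ER-associated degradation that ER stress induces, overlapped with NT. Derl3 had 162, 116 and 109 CPM in NT and 122, 129 and 117 CPM in IR_30d, and Herpud1 had 204, 298 and 276 CPM in NT and 254, 246 and 298 CPM in IR_30d.

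In bulk tissue fewer cells of a type and less RNA per cell cannot be told apart, and markers of cell types moved at day 30. Of 8 acinar identity markers 2 fell in IR_30d (Aqp5 by 0.45 and Cldn10 by 0.37 on the log2 scale, adjusted p = 0.0121 and 0.043, edgeR), and their summed level was 2151 to 2387 CPM against 2664 to 3041 CPM in NT. Of 8 duct markers 1 rose, Krt19 (0.83, adjusted p = 0.0246, edgeR), and the summed level was 508 to 524 CPM against 441 to 591 CPM. Plasma cells also carry much of this machinery. The summed level of 11 plasma cell markers was 22.1 to 104 CPM in NT and 26.8 to 110 CPM in IR_30d. The part of acinar, duct and plasma cell shares in the changes was not tested.

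**Figure D3:**
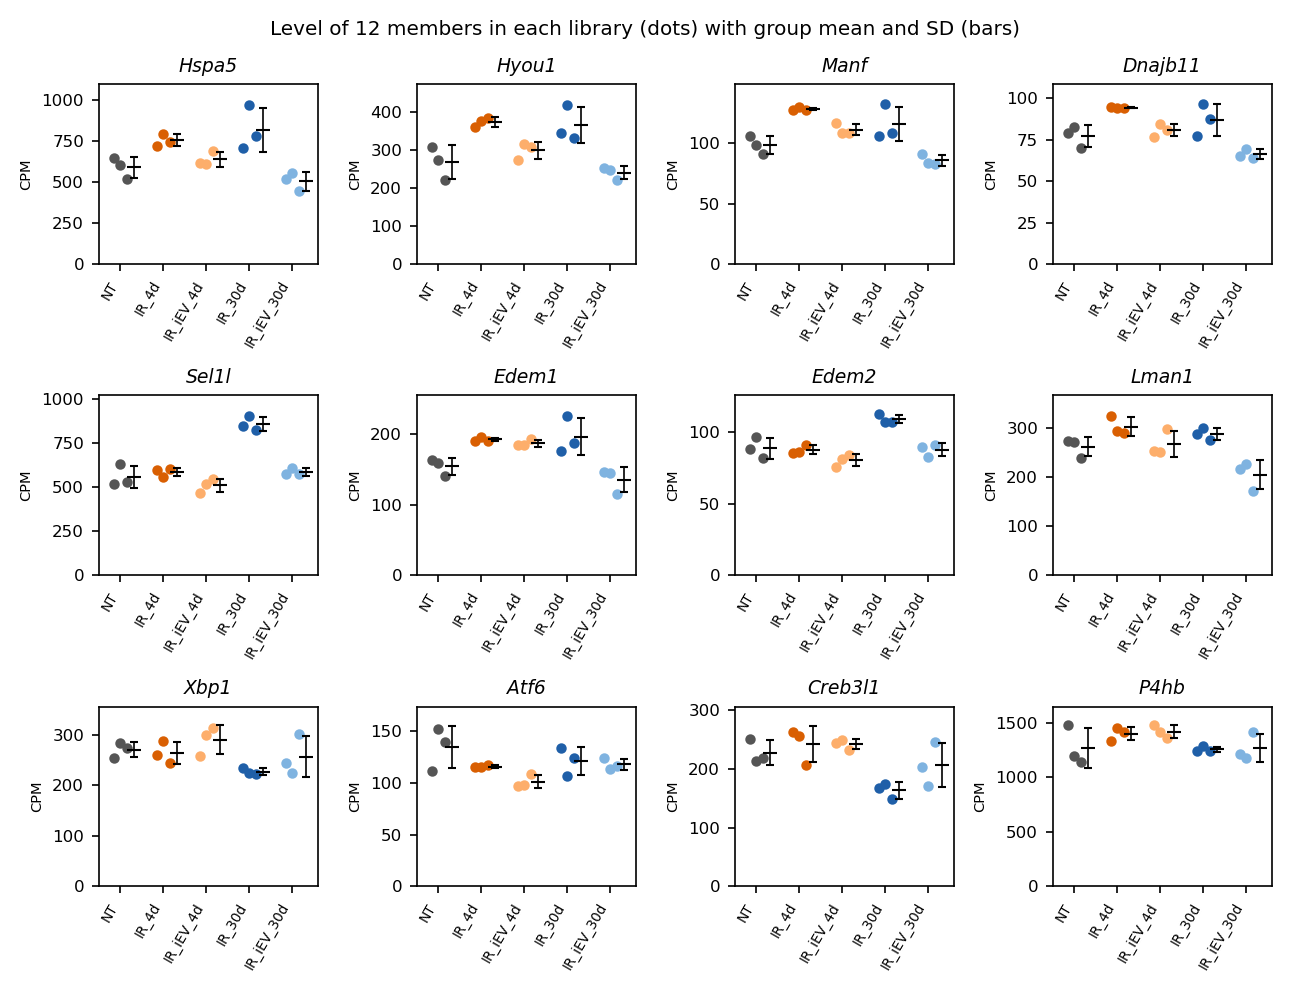
Level in CPM (vertical axis, from 0) of 12 of the genes in the 5 groups; dots are libraries, in the order of replicate 1 to 3, and bars give the mean and SD of 3. Sel1l and Edem2 lie highest in IR_30d, and Hspa5, Hyou1, Manf and Edem1 lie lowest in IR_iEV_30d.

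With iEVs at day 4 the chaperones lay below IR_4d, 10 of 11 in every library, but no single gene passed. IR_iEV_4d was compared with IR_4d, whose libraries also enter the comparison with NT, so the 2 sets of changes are not independent. By edgeR 0 of the 50 genes were called, where 0.0312% of all genes were called higher and 0% lower. An unadjusted p below 0.05 was reached by 9 of the 50 and by 6.81% of all genes, and DESeq2 also called 0. Without the 2 libraries that follow GC content 0 were called as well (edgeR, 9 at an unadjusted p below 0.05), with a median of -0.09. The log2 change was negative in 41 of 50 genes with a median of -0.14, against a median of 0.00 and 49.2% positive over all genes. In 20 of the 50 every IR_iEV_4d library lay below every IR_4d library, which 6.92% of all genes showed. These 20 included 10 of 11 chaperones and 3 of 4 disulfide isomerases, but none of the 9 coat and receptor genes.

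Hspa5 had 617, 608 and 687 CPM in IR_iEV_4d, all below the IR_4d libraries and within or just above the NT range (-0.24 ± 0.12). The lowest p among the 50 belonged to Pdia3 (343, 355 and 360 CPM, -0.28 ± 0.09, adjusted p = 0.593, edgeR), Hyou1 (273, 317 and 308 CPM, -0.32 ± 0.12, adjusted p = 0.638) and Dnajb11 (76.9, 84.4 and 80.8 CPM, -0.22 ± 0.09, adjusted p = 0.652). In each of these 3 genes the groups did not overlap. Manf had 116, 108 and 108 CPM (-0.20 ± 0.09), Creld2 had 44.6, 49.8 and 47.3 CPM (-0.34 ± 0.16) and Sdf2l1 had 50.3, 53.8 and 49.7 CPM (-0.26 ± 0.18), all below IR_4d. Dnajb9 spread from 42.3 CPM in replicate 2 to 74.8 CPM in replicate 1 and overlapped with IR_4d. Hsp90b1 showed the largest change, -0.46 ± 0.21, with 482, 344 and 532 CPM against 620, 625 and 617 CPM in IR_4d. Its lowest value belonged to replicate 2, a library that followed GC content and was high in skeletal muscle markers. Without the 2 libraries that follow GC content the change of Hsp90b1 was -0.29 (adjusted p = 0.828, edgeR). Edem1 (184, 184 and 193 CPM), Herpud1 (250, 277 and 259 CPM) and Xbp1 (258, 299 and 313 CPM) overlapped with IR_4d.

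At day 30 several chaperones and degradation genes were lower in glands given iEVs than in irradiated glands without them. Of the 50 genes 7 were called lower and 0 higher, where 0.63% of all genes were called lower and 0.168% higher. The log2 change was negative in 44 of 50 genes, with a median of -0.21 against -0.01 over all genes, and 22 reached an unadjusted p below 0.05, as did 12.9% of all genes. In 18 of the 50 every IR_iEV_30d library lay below every IR_30d library, which 11% of all genes showed. The 7 called genes were 4 of 11 chaperones, 2 of 8 genes of ER-associated degradation and 1 of 9 coat and receptor genes. None of the disulfide isomerases, sensors or translocon genes passed. The IR_30d libraries are shared with the comparison against NT, in which Sel1l, Hspa5 and Hyou1 were called higher, so the 2 sets of changes are not independent.

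Sel1l had 574, 613 and 579 CPM in IR_iEV_30d against 850, 908 and 827 CPM in IR_30d, 2 tight and separate groups (-0.55 ± 0.09, adjusted p = 0.0124, edgeR). Hspa5 had 518, 555 and 443 CPM against 707, 967 and 777 CPM, also without overlap (-0.69 ± 0.12, a 0.618-fold level, adjusted p = 0.0131, edgeR). Edem1 fell to 146, 145 and 115 CPM from 177, 226 and 187 CPM (-0.54 ± 0.11, adjusted p = 0.0231, edgeR). The lowest of its 3 IR_iEV_30d values was again replicate 3. Hyou1 fell to 252, 249 and 222 CPM (-0.60 ± 0.12, adjusted p = 0.0242, edgeR). Manf fell to 90.3, 82.9 and 82.8 CPM from 106, 132 and 108 CPM (-0.43 ± 0.09, adjusted p = 0.0271, edgeR). Dnajb11 fell to 65.0, 69.6 and 63.9 CPM from 77.1, 96.5 and 87.2 CPM (-0.39 ± 0.09, adjusted p = 0.0411, edgeR). Lman1, the mannose lectin that carries glycoproteins out of the ER, fell to 217, 226 and 172 CPM from 288, 300 and 275 CPM (-0.49 ± 0.11, adjusted p = 0.0411, edgeR). In all 7 genes the groups did not overlap.

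Other genes of the set lay lower without passing. Dnajb9 had 56.8, 41.9 and 32.3 CPM, below all IR_30d libraries (-0.63 ± 0.20, adjusted p = 0.209, edgeR), and called by DESeq2 (adjusted p = 0.0337). Edem2 had 89.6, 82.4 and 90.9 CPM, also below all IR_30d libraries (-0.31 ± 0.08, adjusted p = 0.0714, edgeR). Creld2 (40.4, 50.1 and 35.2 CPM), Sdf2l1 (37.3, 42.7 and 38.6 CPM) and Pdia3 (299, 312 and 260 CPM) overlapped with IR_30d. Sec23b overlapped as well, at 84.7, 110 and 85.5 CPM. In the opposite direction Creb3l1 had 202, 171 and 245 CPM, with replicate 2 within the IR_30d range (0.34 ± 0.12, adjusted p = 0.249, edgeR), and Xbp1 had 244, 224 and 302 CPM (0.18 ± 0.11). Derl3 (117, 108 and 140 CPM) and Herpud1 (233, 201 and 306 CPM) did not separate. Both Creb3l1 and Xbp1 were highest in replicate 3, the library in which genes of higher GC content had higher counts.

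The GC-following library touched these calls. Without it and its day 4 counterpart 2 of the 50 genes passed, where 0.331% of all genes were called lower. They were Sel1l (-0.54 ± 0.10, adjusted p = 0.0199) and Hspa5 (-0.60 ± 0.12, adjusted p = 0.0321), and the median was -0.17. With a GC trend taken out of each library instead, 8 passed, where 1.05% of all genes were called lower: the 7 above and Edem2 (-0.38 ± 0.07, adjusted p = 0.0136), all in edgeR. The calls also rested on few libraries. Leaving out IR_30d replicate 2, IR_30d replicate 3 or IR_iEV_30d replicate 1 left 0 of the 50 past the threshold, with 12, 9 and 31 genes called in the whole table, and the adjusted p of Hspa5 was then 0.0826, 0.0567 and 0.0526. Without IR_iEV_30d replicate 3 alone 1 gene passed, Sel1l. Aqp5, the acinar water channel, was higher with iEVs (0.45, adjusted p = 0.0411, edgeR), the only one of 8 acinar markers that passed, and none of the duct or plasma cell markers passed. Sublingual and adipocyte markers moved with this comparison, although none of the 5 and 7 passed. Sublingual markers summed to 2.29 to 38.5 CPM in IR_30d and 2.39 to 3897 CPM in IR_iEV_30d, with the high value in replicate 2, and adipocyte markers to 5.74 to 30.0 CPM and 0.625 to 8.65 CPM. With both levels as covariates 1 of the 50 passed, Hspa5 (-0.77, adjusted p = 0.029, edgeR), the adjusted p of Sel1l was 0.06, and the median was -0.26. The part of these cells in the changes was not tested further. The summed acinar markers were 2226 to 2851 CPM in IR_iEV_30d and the summed plasma cell markers 26.7 to 54.7 CPM.

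**Figure D4:**
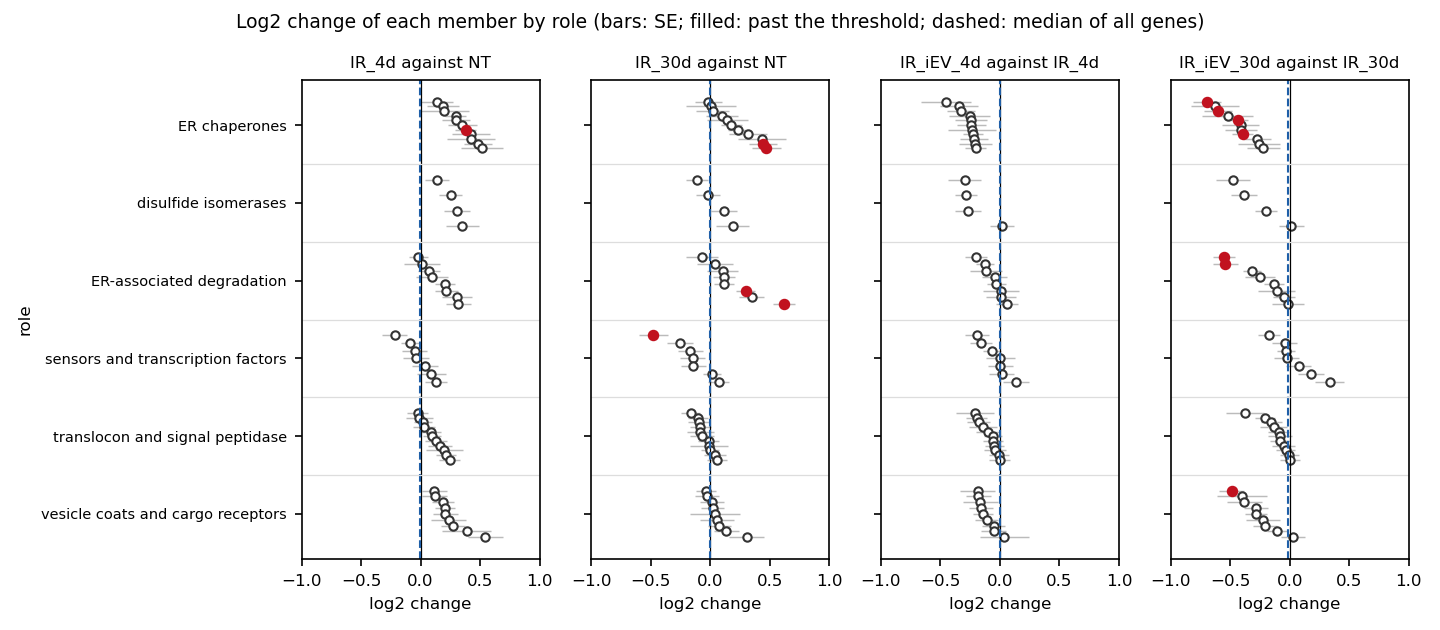
Log2 change of each of the 50 genes (horizontal axis) by role (rows) in the 4 main comparisons; bars are SE, red filled points passed the threshold and the dashed line is the median of all genes. Chaperones lie to the right in IR_4d against NT (median 0.35) and to the left in IR_iEV_30d against IR_30d (median -0.41), and the sensors stay near 0 in both (medians -0.04 and -0.03).

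The changes of the 11 genes with an ERSE or ERSE-II in their window shared a sign in 3 comparisons, most of them without passing the test. All 11 had positive changes from NT to IR_4d, with a median of 0.29, and the 28 genes whose window held neither had a median of 0.13 with 22 positive. All 11 had negative changes from IR_30d to IR_iEV_30d, with a median of -0.38, and the 28 others had -0.19 with 24 negative. Of these 2 of the 11 passed (Hspa5 and Dnajb11), as did 2 of the 28 (Sel1l and Edem1). All 11 were also negative in IR_iEV_30d against NT, with a median of -0.22, where the 28 others had -0.14 with 25 negative and none of either set passed. From NT to IR_30d the medians were 0.10 and 0.01, and from IR_4d to IR_iEV_4d -0.22 and -0.13. The 11 genes without a window were likewise all negative in IR_iEV_30d against NT (median -0.155), so the shared sign there was not particular to genes with an element. From NT to IR_4d 10 of those without a window were positive (median 0.20). From IR_30d to IR_iEV_30d 9 of them were negative (median -0.13) and 3 passed (Hyou1, Manf and Lman1). Most genes with an element are chaperones, so element and role cannot be told apart here.

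The glands given iEVs were also set against NT directly. In IR_iEV_4d against NT 1 of the 50 was called, where 1.35% of all genes were called higher and 0.96% lower. It was the sensor Atf6, at 97.2, 97.8 and 109 CPM against 112, 152 and 140 CPM in NT (-0.41 ± 0.10, adjusted p = 0.0447, edgeR). Leaving out NT replicate 2 or 3, or IR_iEV_4d replicate 1 or 2, ended this call, as did leaving out the 2 libraries that follow GC content, which gave a median of 0.06 as the full fit did. In 6 genes every IR_iEV_4d library lay above every NT library and in 2 below, which 9.72% and 9.3% of all genes showed. Unadjusted p lay below 0.05 in 7 of the 50 and in 16.6% of all genes (edgeR). In IR_iEV_30d against NT edgeR called 0 of the 50, where 0.655% of all genes were called higher and 0.449% lower. An unadjusted p below 0.05 was reached by 15 of the 50 and by 12.9% of all genes, and DESeq2 called 3 of the 50 lower, among 410 genes it called in the whole table. Without the 2 libraries that follow GC content edgeR called 0 (10 at an unadjusted p below 0.05), with a median of -0.13. The changes were negative in 47 of 50 genes, with a median of -0.16, and in 14 of the 50 every IR_iEV_30d library lay below every NT library, against 8.43% of all genes. The NT libraries are shared by these and the IR comparisons. Whether the iEV change differed between the days was tested as an interaction, in which edgeR and DESeq2 each called 0 of the 50, where 0.125% of all genes were called lower and 0% higher. Without the 2 libraries that follow GC content edgeR also called 0 of the 50, and the median was -0.05 against -0.06 with them. An unadjusted p below 0.05 was reached by 3 genes with edgeR, Edem1 (-0.50 ± 0.15, adjusted p = 0.287), Hspa5 (-0.45 ± 0.17, adjusted p = 0.431) and Sel1l (-0.35 ± 0.13, adjusted p = 0.433).

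The secretory load, taken as the percent of a library's counts in lists of salivary secretory products, was highest in IR_30d. It was 38.8 ± 1.78% in NT, 37.7 ± 1.30% in IR_4d, 37.6 ± 3.02% in IR_iEV_4d, 44.1 ± 0.69% in IR_30d and 38.7 ± 0.88% in IR_iEV_30d (mean ± SD, n = 3, exact permutation tests below). IR_30d exceeded NT by 5.33 percentage points and IR_iEV_30d was below IR_30d by 5.41 points (a difference of -5.41), without overlap in either case. A two-sided exact permutation test gave p = 0.1 for both, the smallest that 3 against 3 allows. At day 4 the differences were -1.11 points from NT to IR_4d and -0.10 points with iEVs (exact permutation p = 0.5 and 1). The 4 tests form 1 family, and none can pass 0.05.

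The rise at day 30 came from tubule products, and acinar products moved the other way. Granular tubule products took 23.9, 25.6 and 25.5% of counts in IR_30d against 9.77, 15.5 and 13.8% in NT and 13.1, 17.9 and 12.2% in IR_iEV_30d. Of 18 such genes 15 rose and 1 fell in IR_30d against NT, and 11 fell in IR_iEV_30d against IR_30d (edgeR). Klk1, tissue kallikrein, was the 1 that fell in IR_30d (-1.56 ± 0.25, adjusted p = 0.0029, edgeR). Acinar products took 17.5, 16.7 and 17.2% in IR_30d against 27.8, 19.4 and 21.7% in NT and 22.4, 19.2 and 23.1% in IR_iEV_30d. The load depends on the list. The most counted row in every library, Gm53236, is a predicted gene outside the lists and took up to 15.3% of counts in a library. The share of the 10 most counted genes, which includes it, differed between IR_30d and NT by -0.63 points, the opposite sign.

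The machinery's own share of counts was small and ordered differently. The 50 genes together took 1.02, 1.07 and 0.965% of counts in NT and 1.18, 1.19 and 1.11% in IR_4d, the highest group. They took 0.929, 1.13 and 1.07% in IR_iEV_4d, 0.977, 1.08 and 0.963% in IR_30d and 0.914, 0.936 and 0.872% in IR_iEV_30d, the lowest group. The IR_4d and IR_iEV_30d libraries did not overlap with NT, and the IR_30d libraries did. Counts of secretory products per count of the 50 genes were 38.2 ± 2.79 in NT, 32.5 ± 2.38 in IR_4d, 36.5 ± 6.34 in IR_iEV_4d, 44.0 ± 2.56 in IR_30d and 42.7 ± 1.16 in IR_iEV_30d. The IR_iEV_4d libraries spread from 30.4 to 43.1. The machinery's share was highest in IR_4d, whose product share overlapped with NT, and overlapped with NT in IR_30d, whose product share was highest.

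**Figure D5:**
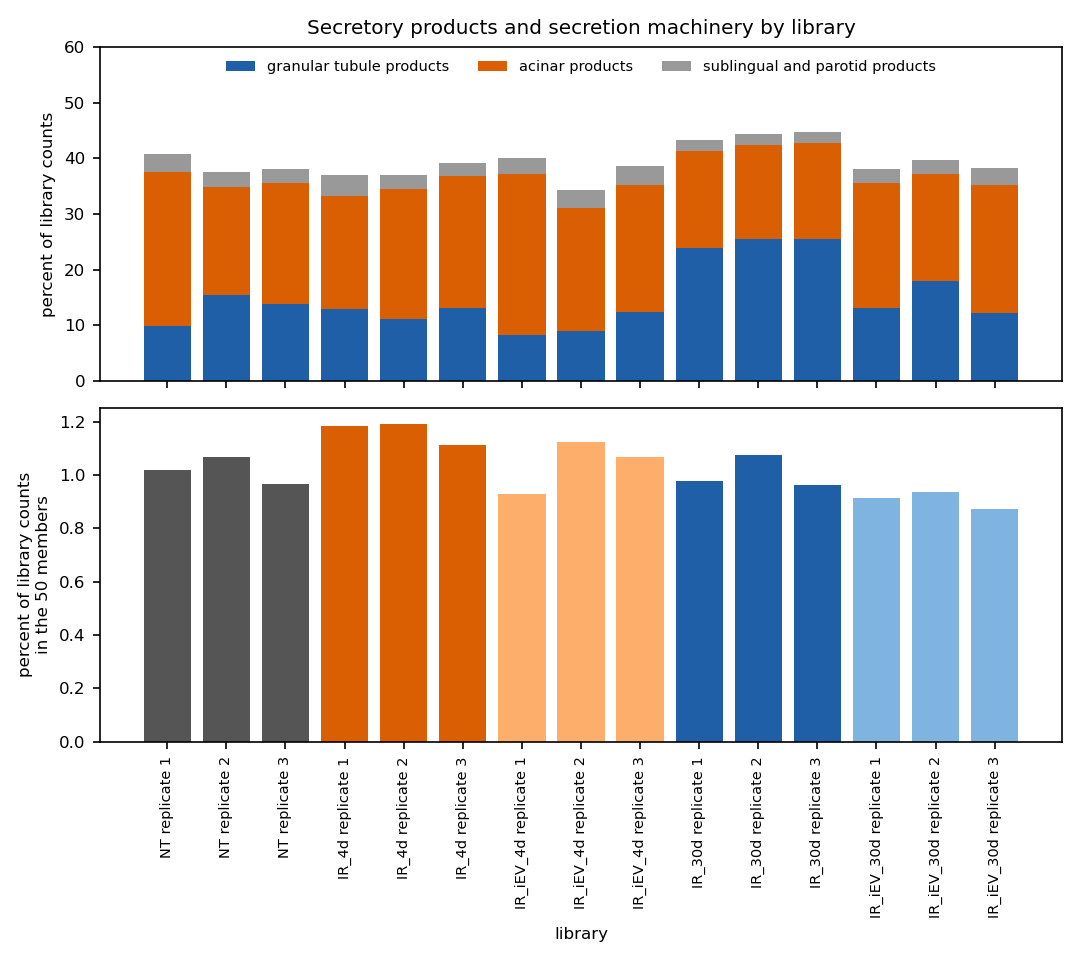
Percent of each library's counts in secretory products, stacked by source (upper panel), and in the 50 genes (lower panel), for the 15 libraries. Tubule products are highest in the 3 IR_30d libraries (23.9 to 25.6%), and the 50 genes take 1.11 to 1.19% in the IR_4d libraries, above all NT, IR_30d and IR_iEV_30d libraries.

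Other genes of the same pathways, from lists that do not overlap with the 50, were tested in the same fit. Their shares of calls are to be read against the 3.19% of all genes called higher and 1.29% called lower in IR_30d against NT, and 1 call in a list of this length is near that level. Of 31 further folding and glycosylation genes 1 rose in IR_30d against NT, Prkcsh, the glucosidase II beta subunit (0.37 ± 0.08, adjusted p = 0.0146, edgeR). Of 15 further genes of ER-associated degradation 1 rose, Erlec1, a lectin of the Sel1l complex (0.34 ± 0.09, adjusted p = 0.0322, edgeR). None of 14 further translocation genes was called in any of the comparisons. Of 37 further vesicle transport genes 1 rose in IR_30d, the COPII GTPase Sar1b (0.42 ± 0.08, adjusted p = 0.0041, edgeR), and 1 fell, the ER exit site scaffold Sec16b (-1.02 ± 0.25, adjusted p = 0.0237, edgeR).

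Calls in the PERK-ATF4 branch went in both directions. Of its 16 targets 1 rose and 1 fell in IR_4d against NT, where 0.835% of all genes were called higher and 0.561% lower. Sesn2, a stress-induced regulator of mTORC1 that p53 also controls, rose (1.34 ± 0.12, adjusted p = 1.57e-06, edgeR), and the pseudokinase Trib3 fell (-1.19 ± 0.29, adjusted p = 0.0464). In IR_30d 2 rose and 1 fell: Sesn2 (0.99 ± 0.12, adjusted p = 8.1e-05), Ddit4 (0.67 ± 0.16, adjusted p = 0.0246) and, lower, Nupr1 (-0.69 ± 0.17, adjusted p = 0.0355), all by edgeR. Sesn2 was also higher than NT in IR_iEV_4d (1.61 ± 0.12, adjusted p = 1.16e-07, edgeR) and in IR_iEV_30d (0.99 ± 0.12, adjusted p = 0.000112, edgeR). There 1.35% and 0.655% of all genes were called higher. The list medians were -0.12 in IR_4d and 0.14 in IR_30d. None of the further pathway genes in these 5 lists was called in IR_iEV_4d against IR_4d or in IR_iEV_30d against IR_30d.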

How the data were processed

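The authors deposited whole-number read counts per gene symbol, 1 column per library, not scaled between libraries. Per the submitters' processing notes they used TopHat, HTSeq and DESeq2 with build GRCm39, without versions. Per the labels RNA was extracted with TRIzol and libraries were made with a directional kit. The annotation, strand setting and treatment of reads mapping to several places are not given in the sources used here, so counts of paralogues and overlapping genes are uncertain. Library totals of 29082798 to 52201098 counts gave every gene described a precision set mainly by the 3 libraries per group.

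All 15 libraries entered a single edgeR model (version 4.0.16, R 4.3.3) with TMM scaling, filterByExpr (minimum count 10, minimum total 15) and the robust quasi-likelihood F test, which leaves 10 residual degrees of freedom. Benjamini-Hochberg adjustment ran over the 16042 genes of each comparison (7 in all), and an adjusted p below 0.05 passed. SE is the absolute log2 change over the square root of F. Levels are CPM of the effective library size. Exon lengths and GC content came from GENCODE M21, an annotation of the preceding build, with GC for 85.2% of tested genes and all 50 described. Promoter windows came from RefSeq. DESeq2 1.42.0, other scalings and filters, a separate fit, marker covariates and leaving out libraries were alternatives. The fit was tested on simulated data first. Each pair of libraries of a group differed beyond sampling noise.

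The 50 genes and all gene lists were chosen with earlier results of these data known. Values per library are given for 8 set genes (Hspa5, Xbp1, Sdf2l1, Creld2, Herpud1, Dnajb9, Manf and Derl3), for the 3 largest changes and the 3 lowest p-values of each main comparison, and, chosen after their values were seen, for the other genes that passed (Edem2, Lman1 and Atf6) and for Syvn1. From the other pathway lists up to 3 passing genes of lowest p are named. The replicate numbers were not taken as pairs, since the labels do not say that a number is shared between groups. Of 30 pairs that share a number 5 had deviations correlated above 0.1, and pairs with different numbers reached 0.284 (IR_4d replicate 1 with IR_iEV_30d replicate 2).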

Additional observations from a re-analysis of the deposited data

How the results depend on the processing

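The 23 gene changes followed here kept their direction under all alternatives, and none reversed. They were picked for size, low p or a call in these same data, and the alternatives reuse most libraries, so a kept direction adds little. Other changes given in the text are not among the 23. Sel1l in IR_30d against NT also kept its call in all 17. Calls among the 50 genes as reported numbered 1 (IR_4d against NT), 5 (IR_30d against NT), 0 (IR_iEV_4d against IR_4d), 7 (IR_iEV_30d against IR_30d), 1 (IR_iEV_4d against NT), 0 (IR_iEV_30d against NT) and 0 (interaction). Leaving out 1 library at a time gave 0 to 6, 1 to 3, 0, 0 to 6, 0 to 2, 0 and 0. In IR_4d against NT 6 passed without NT replicate 1, and 0 without NT replicate 2 or 3 or IR_4d replicate 1 or 2. In IR_30d against NT 3 passed without NT replicate 1 or 2, 2 without IR_30d replicate 1 and 1 without NT replicate 3 or IR_30d replicate 2 or 3. In IR_iEV_30d against IR_30d 0 passed without IR_30d replicate 2 or 3 or IR_iEV_30d replicate 1, and 1 without IR_iEV_30d replicate 3. In IR_iEV_4d against NT 2 passed without NT replicate 1, and 0 without NT replicate 2 or 3 or IR_iEV_4d replicate 1 or 2. DESeq2 called 3 in IR_4d against NT, 11 in IR_iEV_30d against IR_30d and 3 in IR_iEV_30d against NT. Without a filter on low counts 2 passed in IR_4d against NT. A separate fit of the groups compared gave 2 in IR_4d against NT, 3 in IR_iEV_30d against IR_30d and 0 in IR_iEV_4d against NT. Sublingual and adipocyte levels as covariates gave 0 in IR_4d against NT, 3 in IR_30d against NT, 1 in IR_iEV_30d against IR_30d and 0 in IR_iEV_4d against NT, and leaving out the libraries high in sublingual markers gave 0 and 3 in the first 2 of these, the 0 from a single remaining IR_4d library. Without the 2 libraries that follow GC content 2 passed in IR_4d against NT, 2 in IR_iEV_30d against IR_30d and 0 in IR_iEV_4d against NT. With the GC trend taken out 2 passed in IR_4d against NT and 2 in IR_iEV_4d against NT. Both GC settings were chosen after seeing the data. Calls over the whole table changed with the setting too. In IR_iEV_30d against IR_30d 101 genes were called lower as reported, 54 without these 2 libraries and 169 with the GC trend taken out. For most other settings the share of all genes is not given, so those counts are not a result about the 50 genes alone. With the replicate number as a block the counts were 1, 4, 0, 6, 0, 0 and 0 in the order above. Same-number pairs had correlations of deviations from -0.292 to 0.188. The product share differed by -1.86 to -0.11 points (IR_4d against NT), 4.66 to 6.34 (IR_30d against NT), -1.32 to 1.59 (IR_iEV_4d against IR_4d; 0.65 without IR_4d replicate 3 and 1.59 without IR_iEV_4d replicate 2, against -0.10 as reported) and -5.91 to -5.10 points (IR_iEV_30d against IR_30d) when 1 library was left out. By the 10 most counted genes the differences reversed to -0.63 (IR_30d against NT), 2.21 (IR_iEV_4d against IR_4d) and 0.36 points (IR_iEV_30d against IR_30d). Apart from fewer libraries in the fits that leave some out, the cause of these shifts was not tested.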
